A study of Homo sapiens with 9 samples.

Results

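Messenger RNA levels of classical cadherins, the catenins that tie them to actin, and the desmosomal proteins plakoglobin and desmoplakin were followed in PANC-1 cells after transfection with a mimic of the microRNA miR-520f. The genes were CDH1, CDH2, CDH3, CDH11, CTNNA1, CTNNB1, CTNND1, JUP and DSP, taken by gene symbol from the annotation of the array. Each was represented by the brightest probe set that carries a single symbol, and 8 of the 9 had one, out of 14232 genes measured in this way. CTNND1, which encodes p120-catenin, shares its probe set with TMX2 and was therefore not evaluated. PANC-1 is an established epithelial line from a human pancreatic carcinoma. All cultures received the lipid reagent Lipofectamine RNAiMAX, and RNA was collected 72 h later. Non-transfected cells (called lipid-only cells here) received no RNA, negative control cells 20 nM of a mirVana control mimic, and miR-520f cells 20 nM of the mirVana miR-520f mimic. There were 3 biological replicates, and 3 arrays, in each of the 3 groups. The study uses 1 cell line, 1 control mimic and 1 dose.

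Cadherins are calcium-dependent adhesion proteins that join neighbouring cells through their extracellular domains. Inside the cell their tails bind beta-catenin or plakoglobin, p120-catenin stabilises them at the membrane, and alpha-catenin links the complex to actin. Beta-catenin has a second function as the transcriptional effector of Wnt signalling, and its free pool is kept low by a destruction complex. Loss of E-cadherin and gain of N-cadherin is a widely used description of epithelial-mesenchymal transition, also in pancreatic carcinoma cells.

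The agent that separates the groups is shown first, because its seed, bases 2 to 8, is the part of a microRNA that pairs with messenger RNAs. The labels name miR-520f without an arm, so both RefSeq mature arms are given (GRCh38.p14, plus strand, chr19:53682213-53682234 for the 3p arm and chr19:53682173-53682194 for the 5p arm). Relatives of the 3p arm follow, with each seed in capitals.
miR-520f-3p: aAGUGCUUccuuuuagaggguu
miR-520f-5p: cCUCUAAAgggaagcgcuuucu
miR-520c-3p: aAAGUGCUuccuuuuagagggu
miR-302a-3p: uAAGUGCUuccauguuuugguga
miR-373-3p: gAAGUGCUucgauuuuggggugu
Among 2370 mature microRNA names in the RefSeq table, only miR-520f-3p has the seed AGUGCUU. The seed AAGUGCU is shared by 12 others, the last 3 of the lines above among them, and 11 of these 12 hold AGUGCUU 1 base further on, at bases 3 to 9.

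The array values are log2 intensities, already normalized between arrays. Array medians lay between 4.22 and 4.34, and differences of dim probe sets near the lower end of the scale (2.23) are compressed. Of 4 epithelial keratins, KRT8, KRT18 and KRT19 were bright and KRT7 stood at 3.46 to 3.50 as group means. KRT19 averaged 8.16 on the miR-520f arrays, below all control arrays, and 8.90 and 8.83 in the lipid-only and negative control groups. It fell against both (log2 fold changes -0.75 and -0.68, limma adjusted p = 1.21e-04 and 2.39e-04), and the part of this fall in the results on CDH1 was not tested. KRT18 rose against lipid-only cells by 0.41 and was not called against the negative control (0.28), and KRT8 was not called (-0.23 and 0.050). Negative control replicate 1 deviated most from its group mean (root mean square 0.169 over all genes, against 0.0698 to 0.131 on the other arrays). Of the endothelial markers CDH5, PECAM1, VWF and KDR, 0 of 4 differed between the groups in the limma fit (0 also at an unadjusted p under 0.05 and without moderation), and their mean level was 3.09 to 3.28 on all arrays. Of 6 fibroblast markers, DCN, LUM, FAP and PDGFRB had group means of 2.75 to 3.43, and THY1 (6.11 to 7.66) and COL1A1 (7.58 to 8.17) were bright and lowest in negative control cells. The immune markers PTPRC and CD3E, the acinar marker CPA1 and the endocrine markers GCG, SST and CHGA had group means of 2.99 to 3.69. CD68, a lysosomal protein also made outside immune cells, was lower with miR-520f (7.35, against 8.65 and 8.24), and its part in the results was not tested. With 3 arrays a group, their number limits the precision.

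E-cadherin, CDH1, was the member with the largest change, and it was about 2-fold higher with miR-520f than in either control. Its log2 values were 5.59, 5.59 and 5.43 on the lipid-only arrays, 5.39, 5.53 and 5.47 on the negative control arrays and 6.67, 6.56 and 6.60 on the miR-520f arrays. The miR-520f arrays did not overlap with either control group, and a gap of 0.97 separated the lowest miR-520f array from the highest control array. The log2 fold change was 1.07 against lipid-only cells (95% interval 0.90 to 1.24, limma adjusted p = 2.20e-06) and 1.15 against the negative control (0.98 to 1.31, limma adjusted p = 1.25e-06), which correspond to ratios of 2.10 and 2.22. Ranked by whichever of these 2 values was smaller, CDH1 held position 65 among the genes that were higher. In RNA from whole cultures, more cells with CDH1 messenger RNA and more of it per cell cannot be told apart.

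P-cadherin, CDH3, a classical cadherin of basal epithelial layers that is also made by many carcinomas, rose as well, from a low level. It measured 3.71, 3.72 and 3.70 in lipid-only cells, 3.76, 3.61 and 3.63 in negative control cells, and 4.08, 4.01 and 4.08 with miR-520f. Again all miR-520f arrays lay above all control arrays, here by 0.24. The log2 fold changes were 0.35 (95% interval 0.19 to 0.50, limma adjusted p = 0.00290) and 0.39 (0.24 to 0.54, limma adjusted p = 0.00130).

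N-cadherin, CDH2, a cadherin of neural and mesenchymal cells, moved the other way. Its values were 4.25, 4.21 and 4.14 in lipid-only cells, 4.28, 4.23 and 4.24 in negative control cells, and 3.96, 3.89 and 3.98 with miR-520f. The miR-520f arrays lay below every control array by 0.16, at levels near the array medians. The log2 fold change was -0.30 against the negative control (95% interval -0.45 to -0.16, limma adjusted p = 0.00460) and -0.26 against lipid-only cells (-0.40 to -0.11, limma adjusted p = 0.0123). The call against lipid-only cells was lost after a further quantile normalization (adjusted p = 0.0576), with arrays centred on the median (0.0583), without lipid-only replicate 2 (0.0510) and without miR-520f replicate 2 (0.0520).

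Cadherin 11, CDH11, a type II cadherin known from mesenchymal and bone-forming cells, was at the lower end of the scale in every group. Its values ran from 3.06 to 3.27 in lipid-only cells, from 3.20 to 3.31 in negative control cells and from 3.15 to 3.18 with miR-520f, and the groups overlapped. It was not called, with log2 fold changes of -0.021 (95% interval -0.19 to 0.14) and -0.077 (-0.24 to 0.089). The sign of the first of these turned to 0.027 after a further quantile normalization.

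**Figure D1:**
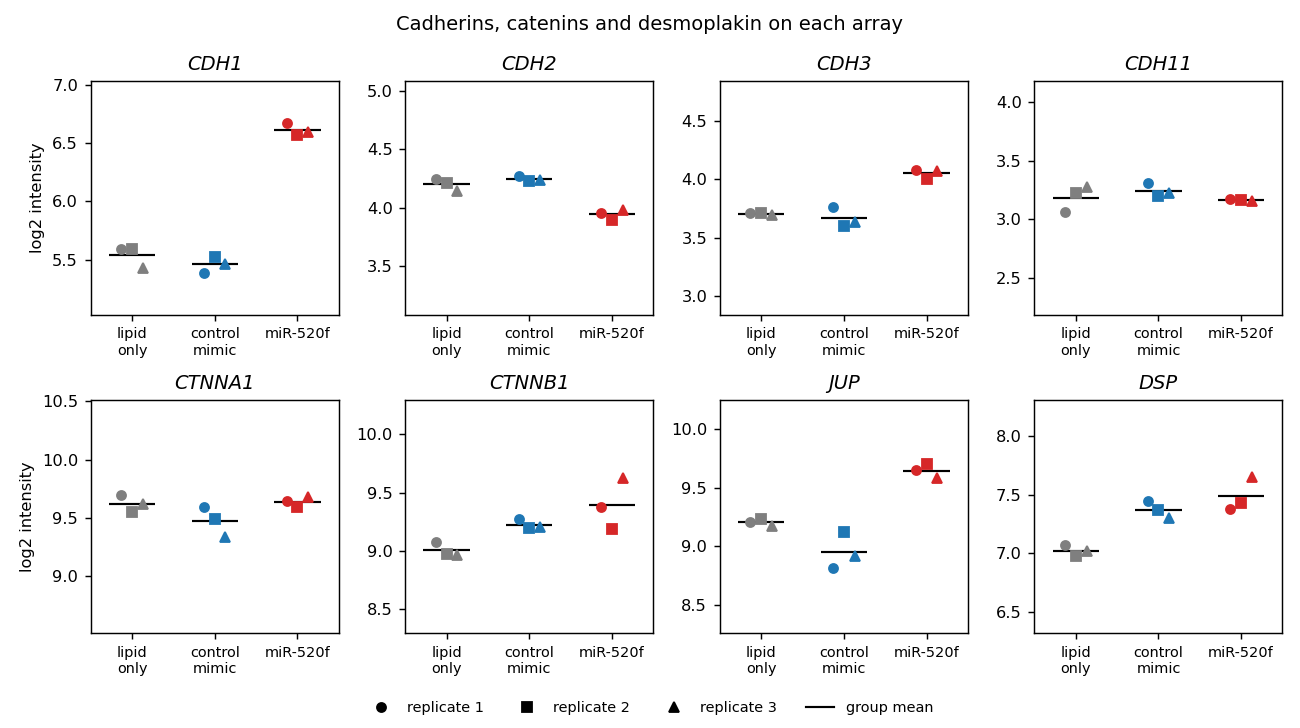
Log2 intensity (vertical axis, each panel spanning at least 2 log2 units) of the 8 measured members on each array, by group (lipid only, control mimic, miR-520f; marker shapes give the replicate number, bars the group mean of 3 arrays). The miR-520f arrays of CDH1, CDH3 and JUP sit above all control arrays, those of CDH2 below them, and those of the other members overlap with at least 1 control group.

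Alpha-catenin, CTNNA1, the link from the cadherin complex to actin, was bright and was not called in any comparison. A further probe set that it shares with LRRTM2 was not evaluated. It measured 9.69, 9.55 and 9.62 in lipid-only cells, 9.60, 9.49 and 9.33 in negative control cells, and 9.64, 9.59 and 9.68 with miR-520f, with overlap of all groups. Its log2 fold changes were 0.018 (95% interval -0.16 to 0.20) against lipid-only cells and 0.17 (-0.014 to 0.35) against the negative control. Both intervals lay between -0.16 and 0.35. Against lipid-only cells its sign depended on the setting, at -0.014 after a further quantile normalization.

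Beta-catenin, CTNNB1, gave 9.08, 8.98 and 8.97 in lipid-only cells, 9.28, 9.20 and 9.20 in negative control cells, and 9.38, 9.19 and 9.62 with miR-520f. All miR-520f arrays stood above the lipid-only arrays, but replicate 2 lay just below the negative control group, and the miR-520f arrays spread more (SD 0.22) than those of the controls (0.062 and 0.045). CTNNB1 was higher than in lipid-only cells by 0.39 (95% interval 0.16 to 0.61, limma adjusted p = 0.0141), a call that was lost without lipid-only replicate 2 (adjusted p = 0.0520) and without moderation of the variances (0.0549). Against the negative control the log2 fold change was 0.17 (-0.053 to 0.39, limma adjusted p = 0.274) and was not called. The negative control itself stood 0.22 above lipid-only cells (-0.0069 to 0.44, limma adjusted p = 0.210).

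Plakoglobin, JUP, also named gamma-catenin, is the close relative of beta-catenin that serves in both adherens junctions and desmosomes. Its values were 9.21, 9.24 and 9.17 in lipid-only cells, 8.81, 9.13 and 8.92 in negative control cells, and 9.66, 9.70 and 9.58 with miR-520f. The miR-520f arrays lay above all control arrays by 0.35, and the negative control arrays lay below the lipid-only arrays. JUP rose by 0.44 against lipid-only cells (95% interval 0.25 to 0.63, limma adjusted p = 0.00250) and by 0.70 against the negative control (0.51 to 0.88, limma adjusted p = 1.10e-04). The difference between the controls, -0.25 (-0.44 to -0.064), was not called (limma adjusted p = 0.0751), although it passed without negative control replicate 2 (adjusted p = 0.0224).

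Desmoplakin, DSP, anchors keratin filaments to the desmosome. It measured 7.07, 6.98 and 7.02 in lipid-only cells, 7.45, 7.37 and 7.30 in negative control cells, and 7.38, 7.43 and 7.65 with miR-520f. The lipid-only arrays stood apart below the rest, while the negative control and miR-520f arrays overlapped. DSP was higher with miR-520f than in lipid-only cells by 0.46 (95% interval 0.28 to 0.65, limma adjusted p = 0.00160), but not called against the negative control (0.11, interval -0.071 to 0.30, limma adjusted p = 0.390). It was the only measured member that differed between the controls, with a log2 fold change of 0.35 for the negative control over lipid-only cells (0.16 to 0.54, limma adjusted p = 0.0168). That call was lost without lipid-only replicate 2 (adjusted p = 0.0731) and without moderation (0.0502).

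Counted over the 8 measured genes, 5 rose and 1 fell against lipid-only cells, where 27.6% of all genes were called (14.5% higher and 13.1% lower). Against the negative control 3 rose and 1 fell, with 28.1% of all genes called (15.4% higher and 12.6% lower). CDH1, CDH3 and JUP rose and CDH2 fell against both, where 18.0% of all genes passed in both with equal sign. In the same 4 genes the miR-520f values did not overlap with any control value, as in 25.4% of all genes (13.2% above and 12.1% below the controls). Between the controls 1 of 8 was called, with 15.3% of all genes. The median log2 fold change of the 8 was 0.37 against lipid-only cells and 0.17 against the negative control, where the medians of all genes were -0.026 and -0.031. The miR-520f comparisons share the miR-520f arrays and are not independent of each other. Without lipid-only replicate 2 the count against lipid-only cells was 4, since CDH2 and CTNNB1 dropped out, and without miR-520f replicate 2 it was 5.

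**Figure D2:**
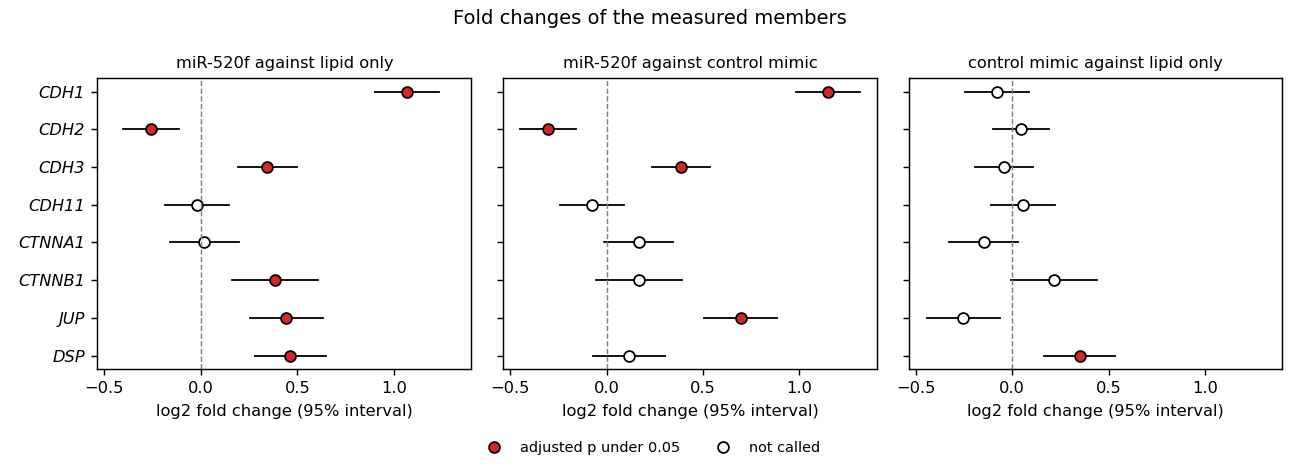
Log2 fold change with its 95% interval (horizontal axis) of the 8 measured members in each of the 3 comparisons; filled points passed at an adjusted p under 0.05 in the limma fit over all genes. CDH1 stands apart at 1.07 and 1.15, and the intervals of CTNNB1 and DSP lie above 0 against lipid-only cells but include 0 against the control mimic.

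Other genes of these junctions and of the beta-catenin pathway were taken from lists drawn up by function. Of 17 measured further cadherins, CDH10 alone was called against both controls in the main setting, rising from 3.03 in each control group to 3.73 with miR-520f (log2 fold changes 0.70 and 0.70, limma adjusted p = 2.45e-04 and 2.32e-04). CDH10 is a type II cadherin of the nervous system, and it stood at the lower end of the scale in the controls. The other 16 were called in no comparison, and their group means lay between 2.69 and 4.65. Of all genes, 18.0% were called against both controls with equal sign. In the single comparisons 27.6% were called against lipid-only cells, 28.1% against the negative control and 15.3% between the controls. Among the 16 cadherins not called, CDH24 had all miR-520f arrays above all control arrays (0.19 and 0.17), as in 13.2% of all genes. It was chosen after its values were seen. The number of further cadherins higher against both controls was 2 after a further quantile normalization, with arrays centred on the median, without moderation and with array weights, and 0 where dim genes, CDH10 among them, were left out.

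Among 17 further catenins, nectins and actin linkers, 2 rose and 2 fell against both controls, where 9.37% of all genes rose and 8.61% fell. NECTIN2, an adhesion protein of the immunoglobulin family, rose by 0.80 and 0.62 against lipid-only and negative control cells, in that order here and below. AJUBA, a LIM protein that binds alpha-catenin, rose by 0.33 and 0.30, and its calls were lost under 2 and 4 of 19 alternatives. The alpha-actinins fell, ACTN1 by a log2 fold change of -0.71 and -0.47 and ACTN4 by -0.60 and -0.56. They cross-link actin filaments and were bright, at 10.38 and 12.00 with miR-520f. ACTN1 was also lower in negative control than in lipid-only cells, by a log2 fold change of -0.24 (limma adjusted p = 0.0381). Vinculin, VCL, was called against the negative control (0.37) and not against lipid-only cells (0.23). Afadin, AFDN, was called against lipid-only cells (0.31) and not against the negative control (0.12). The alpha-catenin relatives CTNNA2 and CTNNA3 and the delta-catenin CTNND2 were dim and not called. These 5 genes were chosen after their values were seen.

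The measured genes of the desmosome list were desmosomal cadherins, plakophilins, the cytolinker PPL and the membrane protein PERP. Of these 12 genes, 5 were higher and 0 lower against both controls in the limma fit. At an unadjusted p under 0.05 in either comparison, or in the unmoderated fit, 0 were lower. Of all genes, 9.37% were higher and 8.61% lower against both controls. The desmosomal cadherin DSC2 measured 6.13, 6.08 and 6.03 in lipid-only cells, 6.31, 6.59 and 6.85 in negative control cells, and 7.96, 7.77 and 7.98 with miR-520f. Its log2 fold changes were 1.82 and 1.32 (SE 0.12 each, limma adjusted p = 1.50e-06 and 1.34e-05), and the negative control itself stood 0.50 above lipid-only cells (limma adjusted p = 0.0164). DSG2, the desmosomal cadherin that pairs with it in simple epithelia, rose from group means of 6.87 and 7.09 to 8.03 (log2 fold changes 1.16 and 0.94). The miR-520f arrays of both genes lay clear of every control array.

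Periplakin, PPL, a cytolinker of the same family as desmoplakin, gave 5.10, 5.04 and 4.95, then 4.56, 4.59 and 4.72, and 6.16, 6.22 and 6.10 with miR-520f. It rose by 1.13 and 1.53, and the negative control lay below lipid-only cells by a log2 fold change of -0.41 (limma adjusted p = 0.00400). The membrane protein PERP (0.37 and 0.45) and the plakophilin PKP3 (0.29 and 0.46; chosen after its values were seen) rose less, and both dropped out without lipid-only replicate 2, which left 3 genes. Against lipid-only cells the call of PKP3 was lost under 5 of 19 alternatives and that of PERP under 2. The cadherins of stratified epithelia, DSG1, DSG3, DSG4, DSC1 and DSC3, had group means of 2.78 to 2.98 and were not called (chosen after their values were seen). The list's median log2 fold change was 0.057 and 0.21.

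**Figure D3:**
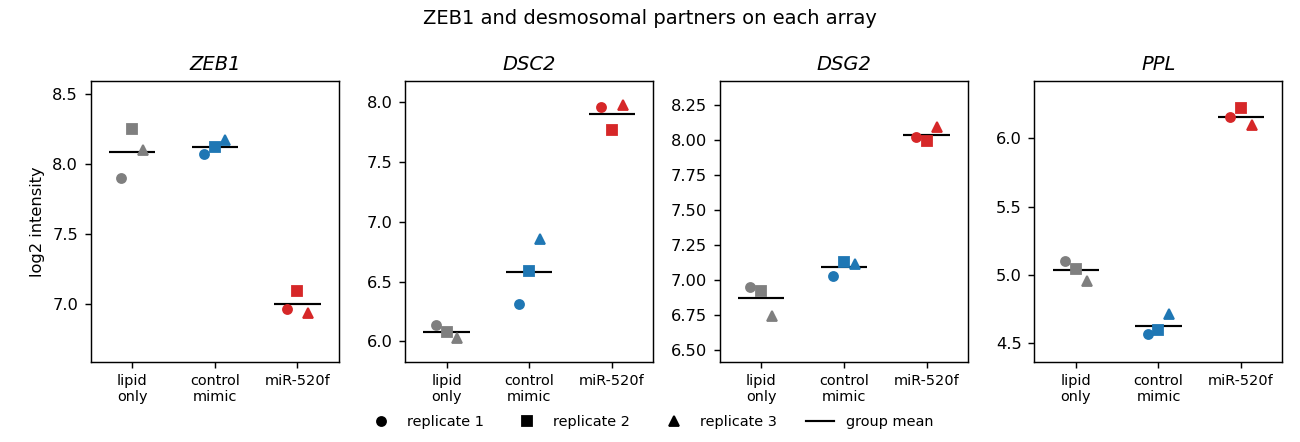
Log2 intensity (vertical axis; ranges differ between panels) of ZEB1, DSC2, DSG2 and PPL on each array, by group (marker shapes give the replicate number, bars the group mean of 3 arrays). All miR-520f arrays of ZEB1 lie below the controls, at 6.93 to 7.09, and those of DSC2, DSG2 and PPL lie above them; the control groups of DSC2 and PPL differ from each other.

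Of 8 transcription factors known as repressors of CDH1, ZEB1 fell and TCF4 rose against both controls, with 8.61% and 9.37% of all genes. ZEB1 measured 7.90, 8.25 and 8.10 in lipid-only cells, 8.07, 8.12 and 8.17 in negative control cells, and 6.97, 7.09 and 6.93 with miR-520f, so that all miR-520f arrays were low. TCF4 encodes the basic helix-loop-helix factor E2-2 and should not be confused with TCF7L2, which carries the same alias. It rose by 0.93 and 1.04. The remaining 6, among them ZEB2, SNAI1 and SNAI2, were not called.

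Of 10 measured genes of cadherin turnover, 2 rose and 1 fell against both controls, counts close to the shares of all genes (9.37% and 8.61%). MDM2, a ubiquitin ligase for p53 that has also been described to act on E-cadherin, rose by 0.97 and 0.60. It was also higher in negative control than in lipid-only cells, by 0.37 (limma adjusted p = 0.0448). PIP5K1C, a lipid kinase that takes part in E-cadherin trafficking, rose by 0.45 and 0.58. ADAM15, a protease that can shed E-cadherin, had log2 fold changes of -0.46 and -0.63, and its call against lipid-only cells was lost without lipid-only replicate 1, without miR-520f replicate 3 and without moderation. The E-cadherin ubiquitin ligase CBLL1 was not called (0.074 and 0.085; chosen after its values were seen).

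Of 18 measured genes of the destruction complex and the Wnt relay, which set the level of free beta-catenin, 4 rose and 2 fell against both controls, with 9.37% and 8.61% of all genes. The Wnt co-receptor LRP6 rose by 1.13 and 1.18 and the scaffold AXIN1 by 0.37 and 0.53. The paralogous F-box proteins that mark beta-catenin for degradation moved in opposite directions: BTRC rose by 1.24 and 0.95, and FBXW11 fell, with log2 fold changes of -0.93 and -0.88. BTRC measured 5.88, 5.72 and 5.57, then 5.96, 6.06 and 6.03, and 6.92, 6.94 and 7.04 with miR-520f. FBXW11 measured 7.77, 7.60 and 7.66, then 7.66, 7.66 and 7.56, and 6.74, 6.68 and 6.81. In neither gene did a miR-520f array reach the range of the controls. BTRC was also higher in negative control than in lipid-only cells, by 0.29 (limma adjusted p = 0.0430). The scaffold APC had log2 fold changes of -0.43 and -0.54, and its call against lipid-only cells was lost under 5 of 19 alternatives. The ubiquitin ligase SIAH1 rose by 0.45 and 0.40, and its call against the negative control was lost without moderation (adjusted p = 0.0527) and without miR-520f replicate 3 (0.0501). GSK3B, a kinase of the complex, was called lower only against the negative control (-0.48), where its level exceeded that of lipid-only cells by 0.32. Against lipid-only cells its log2 fold change was -0.16 and not called. All its miR-520f arrays lay below all control arrays, by 0.013, as in 12.1% of all genes. AXIN1, SIAH1 and GSK3B were chosen after their values were seen.

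Among 10 measured genes of a list of beta-catenin transcription partners, 4 rose and 0 fell against both controls in the limma fit. Of all genes, 9.37% rose and 8.61% fell. The list holds the co-repressors TLE1 and TLE3 as well as partners. The rises were in the DNA-binding factor TCF7L1 (0.62 and 0.85), the co-repressor TLE1 (0.58 and 1.03) and the adaptors BCL9 (0.37 and 0.44) and BCL9L (0.35 and 0.46). Without lipid-only replicate 3 the count was 2, with BCL9 and BCL9L lost. At an unadjusted p under 0.05, PYGO1 (-0.46) and PYGO2 (-0.23) were lower than in lipid-only cells and 0 genes were lower than in negative control cells. PYGO1 also passed the adjusted threshold against lipid-only cells (limma adjusted p = 0.0279). PYGO2 went the other way against the negative control, where it was called higher (0.41, limma adjusted p = 0.0082). Against the negative control 6 of the 10 were higher, as were 15.4% of all genes. LEF1 was dim, at 2.86 to 2.96. Between the controls, 4 of the 10 were lower with the negative control, as were 8.28% of all genes: TLE1 (-0.45), PYGO1 (-0.57), PYGO2 (-0.64) and TLE3 (-0.27), with LEF1 and the last 3 chosen after their values were seen.

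Of 14 measured genes that Wnt and beta-catenin are known to induce, 0 rose and 3 fell against both controls in the limma fit, with 9.37% and 8.61% of all genes, and a count of 0 rises among 14 genes is close to that share. None was called higher against either control alone, and 0 were higher at an unadjusted p under 0.05 or in the unmoderated fit. The general feedback targets AXIN2 (-0.014 and 0.015), NKD1 (0.0013 and -0.067), LGR5 and RNF43 were dim and not called (chosen after their values were seen). SP5, ASCL2, APCDD1, TNFRSF19 and BMP4 were dim as well, with group means of 3.16 to 3.82, and not called. Differences of dim probe sets are compressed, so the lack of rises in these genes says little. MYC was bright (8.44 with miR-520f) and not called (-0.16 and -0.42, limma adjusted p = 0.0569 against the negative control). MYC and the dim genes from SP5 to BMP4 were also chosen after their values were seen. The falls were in CD44, a hyaluronan receptor (-1.57 and -1.29), DKK1, a secreted Wnt antagonist (-2.51 and -0.84), and the cyclin CCND1 (-0.52 and -0.92). All 3 are controlled by other pathways as well. DKK1 was already lower in negative control than in lipid-only cells, by a log2 fold change of -1.67 (limma adjusted p = 5.80e-06). CCND1 was higher there than in lipid-only cells, by 0.40 (limma adjusted p = 0.0357). The median of this list was -0.039 and -0.071.

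**Figure D4:**
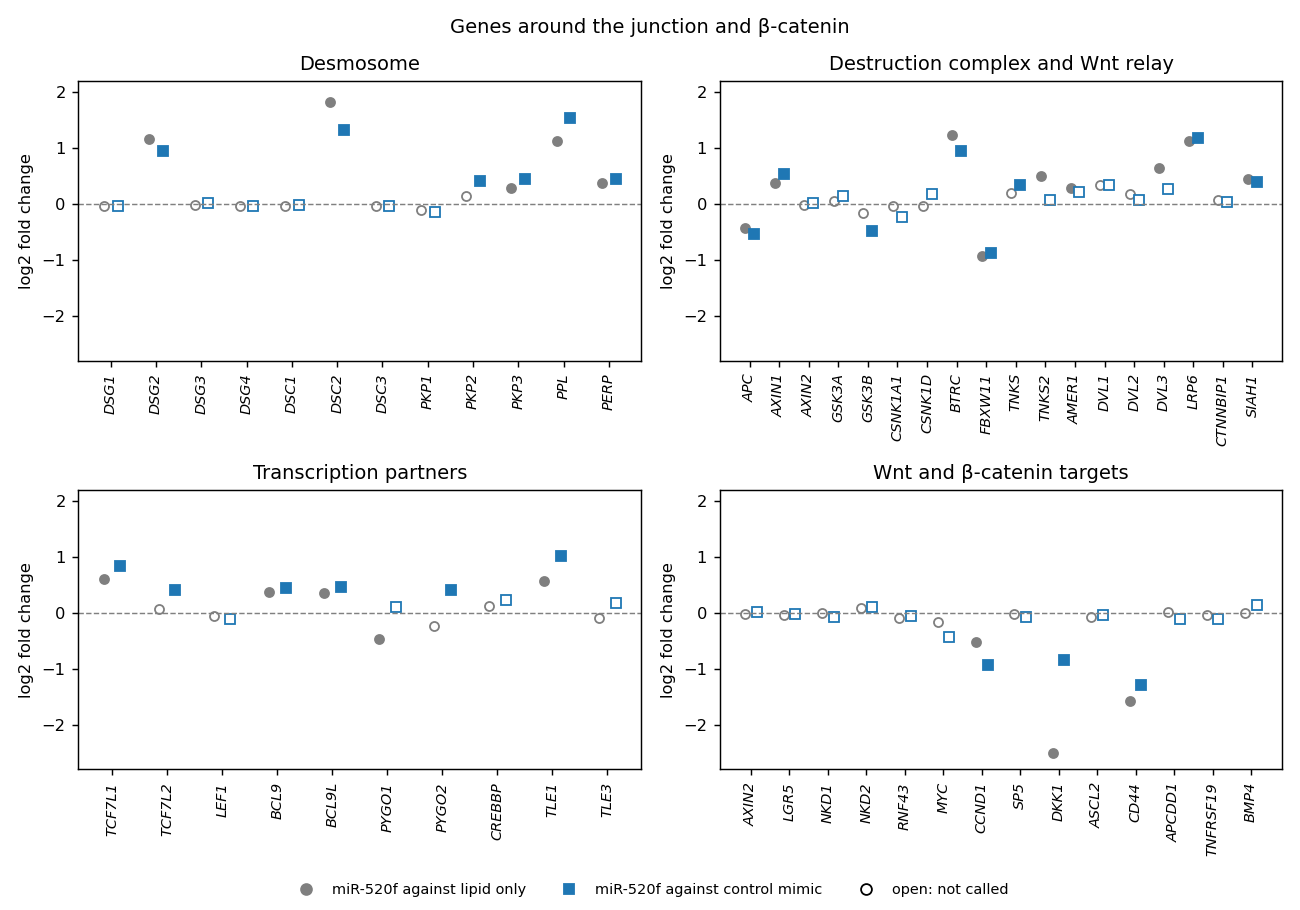
Log2 fold change (vertical axis) of every measured gene of 4 lists against lipid-only cells (circles) and against the control mimic (squares); filled symbols passed at an adjusted p under 0.05. In the desmosome panel DSC2, DSG2 and PPL lie highest, in the destruction complex panel BTRC and LRP6 lie high and FBXW11 low, and in the target panel the filled symbols are those of CCND1, DKK1 and CD44, all below 0.

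Sequence before the gene starts was examined for CAGGTG, read on either strand (CACCTG on the other), the letters that ZEB and SNAIL factors are known to bind in the CDH1 promoter. RefSeq windows of 250 bases upstream of annotated starts (GRCh38.p14) were matched for 5 of the 9 genes, CDH2, CTNNA1, CTNNB1, JUP and DSP. The letters occur in 17.5% of the 35116 such windows of all genes. They were found in 1 of 2 windows of JUP and in the window of DSP, and not in those of CDH2, CTNNA1 and CTNNB1. Both are shown because these desmosomal members differ in their response, with JUP higher against both controls and DSP only against lipid-only cells. Matches are in capitals, 2 in each, for JUP in a stretch of 30 bases (chr17:41786008-41786037, minus strand) and for DSP in the whole window (chr6:7541421-7541670, plus strand).
JUP: ctggcccCACCTGccgagCAGGTGagcgca
DSP: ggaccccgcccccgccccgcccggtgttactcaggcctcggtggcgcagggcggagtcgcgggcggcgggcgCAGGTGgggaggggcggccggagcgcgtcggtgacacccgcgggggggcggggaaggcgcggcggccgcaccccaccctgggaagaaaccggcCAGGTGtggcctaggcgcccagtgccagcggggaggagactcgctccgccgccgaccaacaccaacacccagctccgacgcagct
In JUP the matches begin 54 and 43 bases before this start, and in DSP 178 and 85 bases before it. The only desmosomal partners examined were the 5 called higher against both controls, chosen after their values were seen. Of these, windows of DSG2 (2 matches) and DSC2 (1 match in 1 of 2 windows) also hold the letters, and that of PERP does not. PPL and PKP3 had no window. Partners picked by their response cannot be set against the 17.5% of all windows. A match describes the letters only, and binding was not measured.

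Genes whose profiles over the 9 arrays were most like those of the called members were found by the root mean square difference of mean-centred log2 values. For CDH1 these were SKIDA1 (difference 0.0952, Pearson r = 0.984) and the zinc finger gene BNC2 (0.0961, r = 0.988). For JUP they were VPS4A, an ATPase of ESCRT disassembly (0.0509, r = 0.986), and SBF1 (0.0562, r = 0.982). For CDH3 they were the deubiquitinase USP20 (0.0493, r = 0.962) and BTF3L4 (0.0496, r = 0.961). For CDH2 they were TTC23 (0.0451, r = 0.971) and the secreted chaperone clusterin, CLU (0.0476, r = 0.939). All genes share the 9 arrays and their 3 groups, so these correlations are descriptions.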

How the data were processed

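The authors deposited 1 table of log2 values (22011 probe sets, 9 arrays). The tools Partek 6.6 and RMA and the build hg18 are named in the submitters' processing notes, without settings, and any probe set filter is not given in the sources used here. Labelled cDNA was made with a GeneChip WT PLUS kit, per the labels' protocols. RMA equalises arrays and compresses differences of dim probe sets. A single symbol was given for 14432 probe sets. For each of 14232 genes the brightest was used. Coordinates are those of the RefSeq tables (GRCh38.p14), not of the array.

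One limma model (limma 3.58.1, R 4.3.3) with a mean per group over all 9 arrays gave the comparisons; a gene was called where its p, adjusted over all 14232 genes by Benjamini-Hochberg, was under 0.05. The script recovered known changes of 2 log2 units in simulated data with independent noise. Its recovery of smaller changes is not given here. Intervals are unadjusted 95% limits. Replicates are called biological without detail, and p-values cover only the spread between arrays, which may be technical. Members and lists were chosen with earlier results of these data known. Named genes were all members, ZEB1, ZEB2, SNAI1, SNAI2, up to 4 genes per list with the largest smaller fold change among those called against both controls (2 where none was), and the 2 most similar genes per called member; others are marked in the text. Alternatives were other normalizations, a filter on dim genes, probe set averaging, all probe sets, other variance models, array weights, fits of 2 groups, a replicate block and leaving out each array. Marker lists of fibroblast (6 genes measured), endothelial (4), immune (3), acinar (1) and endocrine (3) cells were checked.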

Additional observations from a re-analysis of the deposited data

How the results depend on the processing

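CDH1, CDH3 and JUP kept their direction and their calls against both controls under every alternative that tested them (19 for CDH1 and JUP, 18 for CDH3, which a minimum mean log2 value of 4 removed), as did CDH2 against the negative control. CDH1 ranged from 1.02 to 1.14 against lipid-only cells and from 1.11 to 1.19 against the negative control. The cause of the changes below was not tested. The log2 fold change of CDH11 against lipid-only cells changed sign to 0.027 after a further quantile normalization, 0.045 with arrays centred on the median and -0.084 to 0.022 with single arrays left out (the highest without lipid-only replicate 3), and between the controls to -0.0029 with array weights and -0.0080 to 0.099 with single arrays left out (the lowest without lipid-only replicate 1). That of CTNNA1 against lipid-only cells turned to -0.014 after quantile normalization, -0.019 to 0.054 with single arrays left out (-0.019 without lipid-only replicate 2, -0.0033 without miR-520f replicate 3), and CTNNA1 passed against the negative control with array weights (0.18, adjusted p = 0.0362). Leaving out each array gave 4 to 6 called members against lipid-only cells, 4 to 4 against the negative control and 0 to 2 between the controls (0 without lipid-only replicate 2, 2 without negative control replicate 2); without moderation the last count was 0. Over all genes, leaving out each array gave 3153 to 4491, 3197 to 4037 and 1394 to 2181 calls in these comparisons. Array weights, by limma's gene-by-gene algorithm because the default stopped before convergence, gave 6251 calls against lipid-only cells and 3355 between the controls, and no moderation gave 1287 between the controls. With the replicate block, the counts were 4060, 4159 and 2297 genes and 6, 4 and 1 members. Deviations of same-numbered arrays correlated between -0.026 and 0.20, not all above 0.1, and the numbers were not taken to pair the samples. Arrays with different numbers were not compared, so these correlations cannot show whether the numbers pair the samples. The list counts under these settings were added after seeing the data. Signal over background was not used, so no gene was called absent.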
